A study of Mus musculus with 12 samples.

Results

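The genes described here are 7 genes known for airway club and secretory cells, Scgb1a1, Scgb3a2, Cyp2f2, Muc5b, Bpifb1, Lypd2 and Tff2. They were taken by name from 4 tables of RNA sequencing, each of which compared 2 groups of mice, and they are 7 of 9338 distinct genes listed there. They were selected on the values described here, since a table holds a gene only where its own groups differed and the names were put together with those differences known. Their changes are therefore given as a description and no test supports them. RNA came from CD31+ cells of mouse lungs, in 4 groups of 3 mice with 1 library a mouse (12 libraries).

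All mice were males on a C57Bl/6J background and carried floxed Tet2 alleles (TET2 fl/fl). WT mice lacked the Cdh5-CreERT2 transgene and TET2 KO mice carried it. This transgene places a tamoxifen-dependent Cre recombinase under an endothelial promoter, so that Tet2 is deleted in endothelial cells. Both genotypes received tamoxifen at 40 mg/kg on 3 days when 6 to 8 weeks old. From 1 week later they ate either standard chow, with 13% of its kcal as fat, or a diet rich in fat (HFD, 60% of kcal), for 20 weeks. The groups are called WT chow, TET2 KO chow, WT HFD and TET2 KO HFD. The level of Tet2 itself was not analysed here.

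Club cells are secretory cells of the bronchiolar epithelium. They release secretoglobins into the airway lining fluid and metabolise inhaled chemicals with cytochrome P450 enzymes, while mucous cells and submucosal glands add mucins, trefoil factors and BPI-fold proteins to the mucus that cilia clear. Endothelial cells, which carry CD31 on their surface and line the vessels, are not known for making these products.

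Libraries held between 36.7 M and 56.8 M reads assigned to genes (median 39.6 M). The tables list only genes with an unadjusted p-value under 0.05 in the authors' own test of that comparison, so a gene has values only in the groups of the tables that list it. On chow, 1298 genes were listed for the 2 genotypes, and all 7 secretory genes were among them. Scgb1a1 and Scgb3a2 were among 7330 listed for HFD against chow in WT. Muc5b, Bpifb1 and Lypd2 were among 1628 listed for HFD against chow in TET2 KO, and 0 of the 7 were among 3939 listed for TET2 KO against WT on HFD. Hence 5 of the genes have values in 9 libraries and 2 of them, Cyp2f2 and Tff2, in 6.

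The endothelial label of the cells was checked in WT chow libraries with FPKM, the read count divided by gene length and library total. Pecam1, which encodes CD31, lay between 36.0 and 79.9 FPKM, and the endothelial cadherin gene Cdh5 between 47.8 and 118 FPKM. RNA of epithelial cells was present as well, with Epcam at 13.4 to 18.7 FPKM and the alveolar type 2 gene Sftpb at 107 to 292 FPKM. So was RNA of leukocytes, with the marker genes Csf1r at 61.8 to 80.45 FPKM and Cd3e at 5.63 to 8.92 FPKM. 2 libraries stood apart within their groups. The summed FPKM of 16 endothelial markers was 895 in WT chow replicate 3 but 369 and 320 in replicates 1 and 2, and that of 9 alveolar type 2 markers was 645 against 275 and 240. In TET2 KO chow replicate 1 the sum of 2 endothelial markers, Ramp2 and Nos3, was 96.2 FPKM against 34.3 and 33.8, most of it from Ramp2. The endothelial marker Emcn did not set this library apart, at 2.67 FPKM against 2.60 and 1.96. TET2 KO chow replicate 1 was also the highest of its group for Cyp2f2, Muc5b, Bpifb1, Lypd2 and Tff2, and by a small margin for Scgb3a2.

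Levels of the 7 genes covered a wide range on the FPKM scale, which allows comparison between genes because it is per length. Scgb1a1 encodes the club cell secretory protein, the chief product of these cells. It is located on chr19:9083636-9087958 (GRCm38, minus strand), with 3 exonic blocks. Its FPKM was 4165, 5481 and 5467 in the WT chow libraries, 2783, 2302 and 3017 in the TET2 KO chow libraries and 3989, 1991 and 4096 in the WT HFD libraries. It had the highest mean FPKM of all listed genes in both tables that hold it, rank 1 of 1298 and rank 1 of 7330. These ranks depend on which genes were listed. Lyz2, listed in neither of these comparisons, had a mean of 4530 FPKM in TET2 KO chow, where that of Scgb1a1 was 2700. For Scgb1a1, every WT chow library lay above every TET2 KO chow and WT HFD library. WT HFD libraries lay on both sides of the TET2 KO chow range.

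Scgb3a2, a second secretoglobin of airway epithelium, lies on chr18:43764289-43767399 (plus strand). Its FPKM was 69.8, 61.2 and 67.2 in WT chow, 30.3, 20.7 and 30.2 in TET2 KO chow, and 52.7, 25.1 and 48.9 in WT HFD. The 3 WT chow values were again the highest, and WT HFD replicate 2 stood low for both secretoglobins. The ratio of Scgb1a1 to Scgb3a2 FPKM was 76.9 ± 15.4 (SD, n = 3) in WT chow, 101 ± 9.65 (SD, n = 3) in TET2 KO chow and 79.5 ± 4.06 (SD, n = 3) in WT HFD. All 3 TET2 KO chow ratios, from 91.9 to 111, were above the highest WT chow ratio of 89.6.

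Cyp2f2 encodes the club cell P450 enzyme that activates naphthalene, and is found on chr7:27119909-27133660 (plus strand). Its FPKM was 63.7, 100 and 98.3 in WT chow and 66.6, 40.0 and 57.5 in TET2 KO chow. WT chow replicate 1 fell inside the TET2 KO range, so the groups overlapped. The antisense gene Gm15883 shares 274 of the 2025 exonic bases of Cyp2f2, and whether counting used the strand is not given in the sources used here.

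The remaining 4 genes lay far below Cyp2f2 and Scgb3a2. Muc5b, the gel-forming mucin needed for clearance of the airways, lies on chr7:141839070-141873084 (plus strand) with 49 exonic blocks. Its FPKM was 0.572, 0.779 and 1.32 in WT chow, 0.548, 0.239 and 0.242 in TET2 KO chow, and 0.874, 0.542 and 1.13 in TET2 KO HFD, on 143 to 768 reads a library. TET2 KO chow replicate 1 was higher than its group and just below the lowest WT chow library. It was also above TET2 KO HFD replicate 2.

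Bpifb1 encodes a secreted BPI-fold protein of mucous cells and lies on chr2:154190818-154220369 (plus strand). Its FPKM was 3.12, 1.51 and 3.71 in WT chow, 1.13, 0.701 and 0.9505 in TET2 KO chow, and 3.82, 1.58 and 3.99 in TET2 KO HFD. The TET2 KO chow libraries were below all others, and replicate 2 was the lowest library in each of the groups.

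Lypd2, a member of the LY6/PLAUR domain family, lies on chr15:74732247-74734329 (minus strand). Its FPKM was 4.43, 5.05 and 4.15 in WT chow, 2.38, 1.49 and 1.49 in TET2 KO chow, and 2.21, 2.81 and 4.10 in TET2 KO HFD. TET2 KO HFD values lay between those of the other groups and overlapped TET2 KO chow. Tff2, a trefoil peptide secreted with mucus, lies on chr17:31141049-31144282 (minus strand). Its FPKM was 1.25, 4.20 and 4.04 in WT chow and 1.85, 1.57 and 1.43 in TET2 KO chow, on only 32 to 92 reads a library. WT chow replicate 1 was the lowest of the 6 libraries, so these groups overlapped too.

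**Figure D1:**
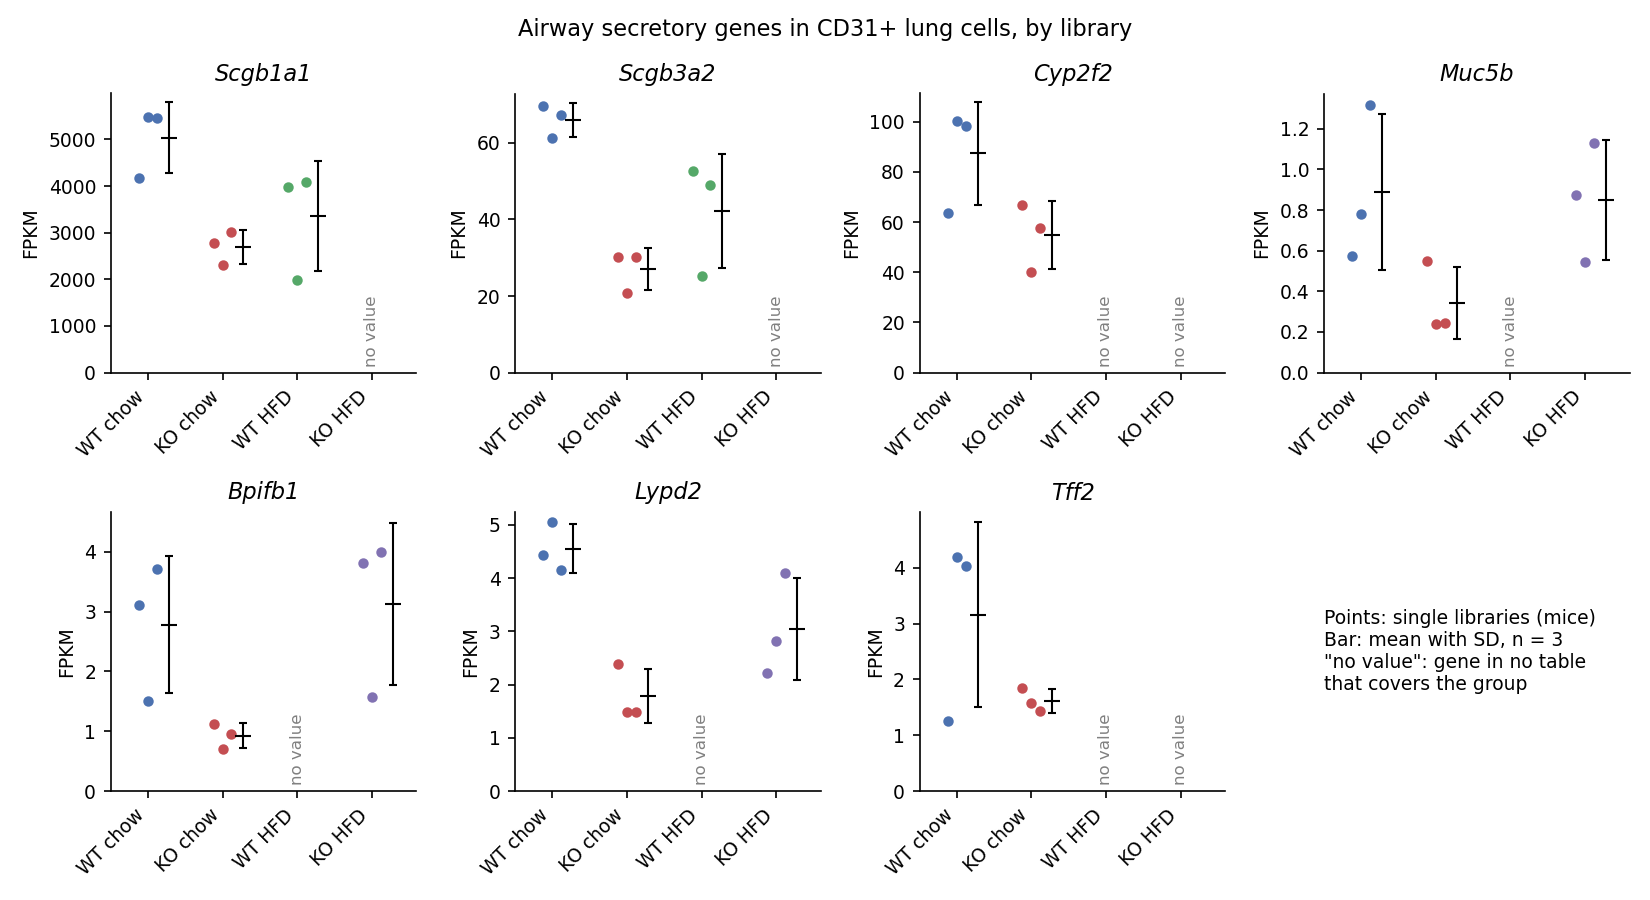
FPKM of each of the 7 genes (1 panel a gene, linear axis from 0) in the libraries of the 4 groups; points are single mice and the bar beside them is the mean with its SD (n = 3), and groups without a value are marked. Every gene is lower on average in TET2 KO chow than in WT chow. Libraries of these groups do not overlap for 5 of the 7 genes, beside 74.7% of all listed genes. Bpifb1 and Muc5b in TET2 KO HFD reach the WT chow range.

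The comparison of TET2 KO with WT on chow asked how deletion of TET2 from endothelial cells changed the RNA of CD31+ lung cells. All 7 secretory genes were lower in TET2 KO chow, and 6 of 7 were called, meaning an unadjusted p under 0.05 in edgeR's quasi-likelihood test. By the same rule 76.6% of all listed genes were called, 46.0% as lower and 30.6% as higher. Libraries did not overlap for 5 of the 7, against 74.7% of listed genes. The median log2 fold change was -1.29 over the 7 genes and -0.37 over all 1298 listed genes. With p-values adjusted over the listed genes (Benjamini-Hochberg), 0 of the 7 were called in edgeR, here and in both diet comparisons below. Because these contrasts chose the genes, nothing is read from the counts.

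The secretoglobins had the smallest errors. Scgb3a2 fell 2.44-fold (log2 fold change -1.29, SE 0.19), from 66.0 ± 4.38 to 27.1 ± 5.49 FPKM (SD, n = 3 each). Scgb1a1 fell 1.87-fold (log2 fold change -0.90, SE 0.18), to a mean of 2700 ± 364.5 FPKM from 5038 ± 756 (SD, n = 3 each). Both kept their call without any 1 library. Cyp2f2 had a log2 fold change of -0.67 (SE 0.25) and was called, but in only 2 of the 6 fits that left out 1 library.

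Among the other genes Bpifb1 fell most, 3.00-fold (log2 fold change -1.59, SE 0.36), and kept its call in all 6 fits without 1 library. Lypd2 fell 2.54-fold (log2 fold change -1.34, SE 0.27), with 6 of 6. Muc5b fell 2.58-fold (log2 fold change -1.37, SE 0.43) and was called in 5 of 6, with -1.16 and no call without TET2 KO chow replicate 2. Tff2 was not called, at a log2 fold change of -0.96 (SE 0.45), and became called at -1.34 once WT chow replicate 1, its lowest library, was left out.

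Without WT chow replicate 3, the library with the high endothelial and alveolar markers, all 7 genes stayed lower, from -0.58 for Cyp2f2 to -1.41 for Lypd2, and 5 were called. Without TET2 KO chow replicate 1, which also stood apart, they ranged from -0.84 for Cyp2f2 to -1.89 for Muc5b, and 6 were called. Of all 1298 listed genes, 806 were called without WT chow replicate 3 and 633 without TET2 KO chow replicate 1. In a bulk sample, fewer cells of a type and less RNA per cell cannot be told apart.

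Other genes of the same cells were examined through fixed lists. Of 30 further club cell genes, 9 were listed in this comparison, all 9 lower and 8 of them called, with a median log2 fold change of -1.15. The decreases included Scgb3a1, another secretoglobin, from 30.4 ± 17.3 to 11.9 ± 1.26 FPKM (log2 fold change -1.36, SE 0.40), and Slc16a11, of the monocarboxylate transporter family (-1.36, SE 0.23). Pigr, the receptor that carries IgA across epithelium, fell by 0.95 on the log2 scale (SE 0.23) and Gabrp, a GABA receptor subunit, by 1.01 (SE 0.29). Chad fell by 0.73 on the log2 scale (SE 0.20), and Gsta3, a glutathione transferase, was at -0.44 (SE 0.20) with no call. The P450 gene Cyp2a5 and the antimicrobial lectin gene Reg3g fell as well, and reads of Cyp2a5 can be shared with its close paralog Cyp2a4. Of 23 mucous and gland genes 3 were listed, and all 3 fell. These were Bpifa1 (-1.48, SE 0.46), Muc2 (-1.48, SE 0.44) and the membrane mucin Muc16 (-1.99, SE 0.45). Muc2 rested on only 22 to 28 reads a library in TET2 KO chow and 33 to 89 in WT chow. Muc16 rested on 15 to 35 and 47 to 117 reads.

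The transcription factors of secretory cells did not move one way. Of 16, 4 were listed. Nkx2-1, the lung epithelial regulator, had a log2 fold change of 0.67 (SE 0.31) and Tfcp2l1 of 0.69 (SE 0.30), both without a call. Grhl1 fell by 0.50 on the log2 scale (SE 0.21). Foxa3 was called lower on 0 to 1 reads a library in TET2 KO chow and 3 to 7 in WT chow.

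Relatives of the 7 genes by family were divided. Of 37, 6 were listed, 4 of them called lower (Bpifa1, Scgb3a1, Cyp2a5 and Muc2) and 1 called higher. The latter was Ly6a, a LY6 family gene like Lypd2, at 222 ± 101 FPKM in TET2 KO chow and 114 ± 52.7 in WT chow (log2 fold change 0.96, SE 0.40).

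Lists for other lung cell types were set beside these. None of 24 ciliated, 15 alveolar type 1, 15 alveolar type 2, 14 general epithelial and 6 neuroendocrine genes was listed on chow, so no fold change is given for them there. The general epithelial genes Epcam and Krt19 had FPKM in both chow groups through other comparisons. Epcam was at 15.6 ± 2.77 FPKM in WT chow and 13.4 ± 1.80 in TET2 KO chow (SD, n = 3 each). Krt19 was at 101 ± 27.6 and 98.4 ± 35.7 FPKM. Of 7 basal cell genes 1 was listed, Ngfr, which fell by 0.86 on the log2 scale (SE 0.34). The listed mesothelial genes moved with the secretory genes: 5 of 10 were listed and all 5 fell. Their summed levels were 0.782 to 1.52 FPKM in TET2 KO chow and 1.59 to 9.01 in WT chow. Muc16 is among these 5 and also on the mucous list. Krt19, given above, is on the mesothelial list as well. The listed mesenchymal genes were lower too, 4 of 12 (Dcn, Col1a2, Col1a1 and Col3a1), with sums of 3.05 to 3.86 and 4.33 to 9.18 FPKM. Of 18 endothelial genes 2 were listed, Ramp2 and Nos3, both higher without a call. Their sums were 33.8 to 96.2 FPKM in TET2 KO chow and 15.98 to 40.8 in WT chow. Emcn, an endothelial gene with values through other comparisons, was at 2.41 ± 0.39 FPKM in TET2 KO chow and 2.37 ± 0.27 in WT chow (SD, n = 3 each). Of 16 leukocyte genes 3 were listed, all higher and 2 called, with sums of 41.5 to 61.7 and 24.9 to 38.0 FPKM. No listed marker was at 0 in all 6 libraries. What these cell types contributed to the lower secretory genes was not tested.

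**Figure D2:**
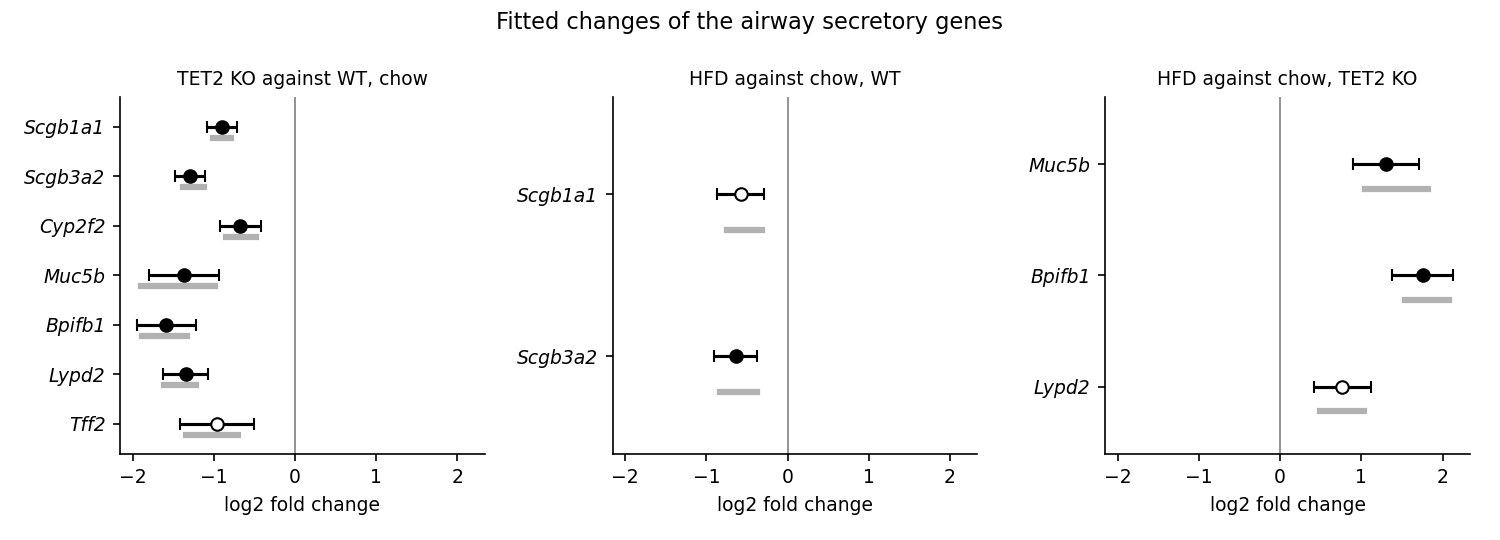
Log2 fold change (horizontal axis) of each listed secretory gene in 3 comparisons; circles are edgeR estimates with 1 SE, filled where called at an unadjusted p under 0.05, and grey bars below them are the range over the 6 fits that each left out 1 library. On chow all 7 genes are left of 0, from -1.59 to -0.67, and in TET2 KO mice on HFD the 3 listed genes are right of 0, from 0.76 to 1.76.

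The bases upstream of the start sites are shown where a promoter was at hand, because the 7 genes were put together as lower on chow. RefSeq promoters on GRCm38.p6 matched 2 of the 7 genes, Cyp2f2 and Bpifb1. The 250 bases before each start were searched on both strands for motifs of airway epithelial factors, FOXA (TGTTTNC), NKX2-1 (TNAAGTG) and C/EBP (TTNNGCAA), and for a TATA box (TATAAA). Capitals mark the matches found, an NKX2-1 motif 192 to 186 bases before the RefSeq start of Cyp2f2 and a FOXA motif on the minus strand 43 to 37 bases before the Bpifb1 start. The RefSeq start of Cyp2f2 lies 46 bases inside the deposited gene. Its stretch, chr7:27119705-27119908, stops where the deposited gene begins, with the capitals 146 to 140 bases from its end, and that of Bpifb1 is chr2:154190568-154190817, both plus strand, 5′ to 3′.
Cyp2f2: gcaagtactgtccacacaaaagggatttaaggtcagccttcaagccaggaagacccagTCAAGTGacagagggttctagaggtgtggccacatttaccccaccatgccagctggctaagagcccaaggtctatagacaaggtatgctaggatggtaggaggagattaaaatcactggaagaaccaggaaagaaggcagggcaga
Bpifb1: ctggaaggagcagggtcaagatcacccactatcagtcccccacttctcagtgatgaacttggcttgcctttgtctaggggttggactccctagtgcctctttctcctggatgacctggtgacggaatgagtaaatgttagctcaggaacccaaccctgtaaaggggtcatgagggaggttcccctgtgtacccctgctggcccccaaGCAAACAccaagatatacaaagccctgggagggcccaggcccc
Of 32851 promoters of this length, 10.1% held the NKX2-1 letters and 17.8% the FOXA letters, 9.56% the C/EBP and 12.4% the TATA letters. The other start site of Bpifb1 held 0 matches to the 4 motifs. A match is only a description of the sequence.

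The comparison of HFD with chow in WT mice asked what the diet alone changed. Of the 7 secretory genes only the secretoglobins were listed, both were lower on HFD, and 1 of these 2 was called, where 91.6% of all listed genes were called 49.2% as lower and 42.4% as higher. Libraries of the groups did not overlap for either, against 86.5% of listed genes. The median log2 fold change over both was -0.61, and -0.33 over all listed genes.

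Scgb3a2 fell 1.56-fold (log2 fold change -0.64, SE 0.27), to 42.3 ± 15.0 FPKM in WT HFD (SD, n = 3). It was called in 3 of the 6 fits without 1 library, and the 3 that lost the call each left out a WT chow library. Scgb1a1 was not called, with a mean of 3358 ± 1186 FPKM (SD, n = 3) and a log2 fold change of -0.58 (SE 0.29). WT HFD replicate 2 set the size of both, since without it the log2 fold changes were -0.37 for Scgb3a2 and -0.31 for Scgb1a1. WT chow, which is the reference here, is also the reference for TET2 KO on chow.

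In this comparison most of the further club cell genes listed did not follow the secretoglobins. Of 30, 9 were listed, 7 higher and 2 lower, with a median log2 fold change of 0.87. Sec14l3 is also on the alveolar type 1 list. The summed FPKM of the 9 was 312 in WT chow replicate 3 but 137 and 171 in replicates 1 and 2. Replicate 3 also stood high for endothelial and alveolar type 2 markers. The P450 gene Cyp4b1 rose from 88.7 ± 47.3 to 161 ± 32.8 FPKM (log2 fold change 0.87, SE 0.36), and Sec14l3 (1.03, SE 0.31), Fmo2 (1.00, SE 0.26), Cyp2s1 (0.89, SE 0.30) and Cyp2b10 (1.42, SE 0.40) rose as well. Hp, haptoglobin, at 0.75 (SE 0.39) and the esterase gene Ces1d at 0.78 (SE 0.34) were not called. Slc16a11 fell by 1.34 on the log2 scale (SE 0.17), and Gabrp was at -0.92 (SE 0.41) with no call.

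Mucous genes were lower. Of 23, 6 were listed, all lower and 5 called. Galnt6, which starts O-glycosylation of mucins and other proteins, fell by 0.78 on the log2 scale (SE 0.13), from 38.2 ± 5.63 to 22.1 ± 0.147 FPKM, Bpifa1 by 1.43 (SE 0.55) and the trefoil gene Tff3 by 1.73 (SE 0.46). Muc2 and Tff1 fell too, at under 1.2 FPKM on average, and Muc16 was not called at -0.97 (SE 0.47). Of 16 secretory transcription factors 5 were listed, Cebpa and Grhl1 called lower, Nkx2-1 called higher, and Foxa2 and Tfcp2l1 higher with no call. Cebpa had a mean of 103 FPKM in WT chow, where the others ranged from 0.749 (Tfcp2l1) to 4.40 (Nkx2-1). Which cells its RNA came from was not tested. Of 37 family relatives 12 were listed, 6 called higher and 6 called lower.

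Markers of other epithelial cells and of endothelium were mostly higher on HFD. Of 15 alveolar type 1 genes 13 were listed and all 13 rose, their summed level being 185 to 245 FPKM in WT HFD and 68.3 to 127 in WT chow. Of 15 alveolar type 2 genes 9 were listed, all higher and 3 called (506 to 926 and 240 to 645 FPKM). Of 24 ciliated genes 8 were listed, 7 higher and 3 called (9.74 to 19.9 and 6.78 to 14.3 FPKM). Of 18 endothelial genes 16 were listed, all higher and 15 called (966 to 1710 and 320 to 895 FPKM). General epithelial genes went the other way, 4 of 14 listed, 3 lower and 2 called. Of 7 basal genes 2 fell, Ngfr and Krt15, and of 6 neuroendocrine genes 2 were listed, both lower and 1 called. Leukocyte genes rose, 5 of 16 listed and all 5 called, while 4 mesothelial and 5 mesenchymal genes were divided. What these shifts contributed to the secretoglobin levels was not tested.

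The comparison of HFD with chow in TET2 KO mice asked for the effect of the diet in the absence of endothelial TET2. The listed secretory genes were Bpifb1, Muc5b and Lypd2, all 3 higher on HFD. Of these, 2 of 3 were called, where 77.0% of listed genes were called, 29.3% as higher and 47.7% as lower, and libraries did not overlap for 1 of 3, against 72.6% of listed genes. TMM scaling over the listed genes moved the median of all of them by 0.25 (log2) and turned that balance, from 38.0% to 64.2% of calls being higher. The median log2 fold change of the 3 genes was 1.31, and that of all listed genes -0.51.

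Bpifb1 rose 3.38-fold (log2 fold change 1.76, SE 0.38), from 0.926 ± 0.214 to 3.13 ± 1.35 FPKM (SD, n = 3 each), and kept its call in all 6 fits without 1 library. Muc5b rose 2.47-fold (log2 fold change 1.31, SE 0.41), from 0.343 ± 0.178 to 0.849 ± 0.295 FPKM (SD, n = 3 each), with 6 of 6. Lypd2 was not called, at a log2 fold change of 0.76 (SE 0.35), but was called at 1.03 without TET2 KO chow replicate 1, at 0.95 without TET2 KO HFD replicate 1 and at 1.02 under TMM scaling. The WT chow means of Bpifb1 and Muc5b, 2.78 ± 1.14 and 0.889 ± 0.384 FPKM (SD, n = 3), differed from those in TET2 KO HFD by less than the spread between libraries. For Lypd2 the order of means was 4.55 ± 0.460 in WT chow, 3.04 ± 0.963 in TET2 KO HFD and 1.79 ± 0.513 in TET2 KO chow (SD, n = 3), where TET2 KO HFD overlapped TET2 KO chow and not WT chow. These comparisons share the TET2 KO chow libraries with those of TET2 KO against WT.

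Of 30 further club cell genes 5 were listed and all 5 rose on HFD in TET2 KO mice, with a median log2 fold change of 1.25. Scgb3a1 rose from 11.9 ± 1.26 to 28.3 ± 10.6 FPKM (log2 fold change 1.26, SE 0.29), Reg3g by 1.33 (SE 0.31), Cyp2a5 by 1.25 (SE 0.40), Slc16a11 by 0.96 (SE 0.36) and Chad by 0.74 (SE 0.20). Of 23 mucous and gland genes 3 were listed, with Bpifa1 (1.23, SE 0.47) and Muc16 (1.94, SE 0.48, on 45 to 120 reads against 15 to 35) higher. The third, Lyz2, fell by 0.71 on the log2 scale (SE 0.25), a lysozyme gene that macrophages also express strongly. Of 16 transcription factors 1 was listed, Foxa3, called higher on 2 to 8 reads against 0 to 1, and of 37 family relatives 3 were listed and called higher.

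Of 10 mesothelial genes 8 were listed, 7 of them called higher, while Krt19 was lower without a call. The 7 included Upk3b (2.04, SE 0.29), Msln (2.43, SE 0.49) and Muc16, which is also on the mucous list. The summed level of the 8, most of it from Krt19, was 50.2 to 102 FPKM in TET2 KO HFD and 63.2 to 137 in TET2 KO chow. Of 12 mesenchymal genes 5 were listed, all higher and 3 called (4.36 to 8.79 and 2.65 to 3.34 FPKM). None of the ciliated and alveolar type 2 genes was listed, and 1 each of the alveolar type 1 (lower), endothelial (higher) and neuroendocrine genes (lower) was called. Of the rest, 3 basal genes were listed with 2 called higher, 2 general epithelial genes were lower with 1 called, and 2 leukocyte genes fell. What they contributed to the higher secretory genes was not tested.

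**Figure D3:**
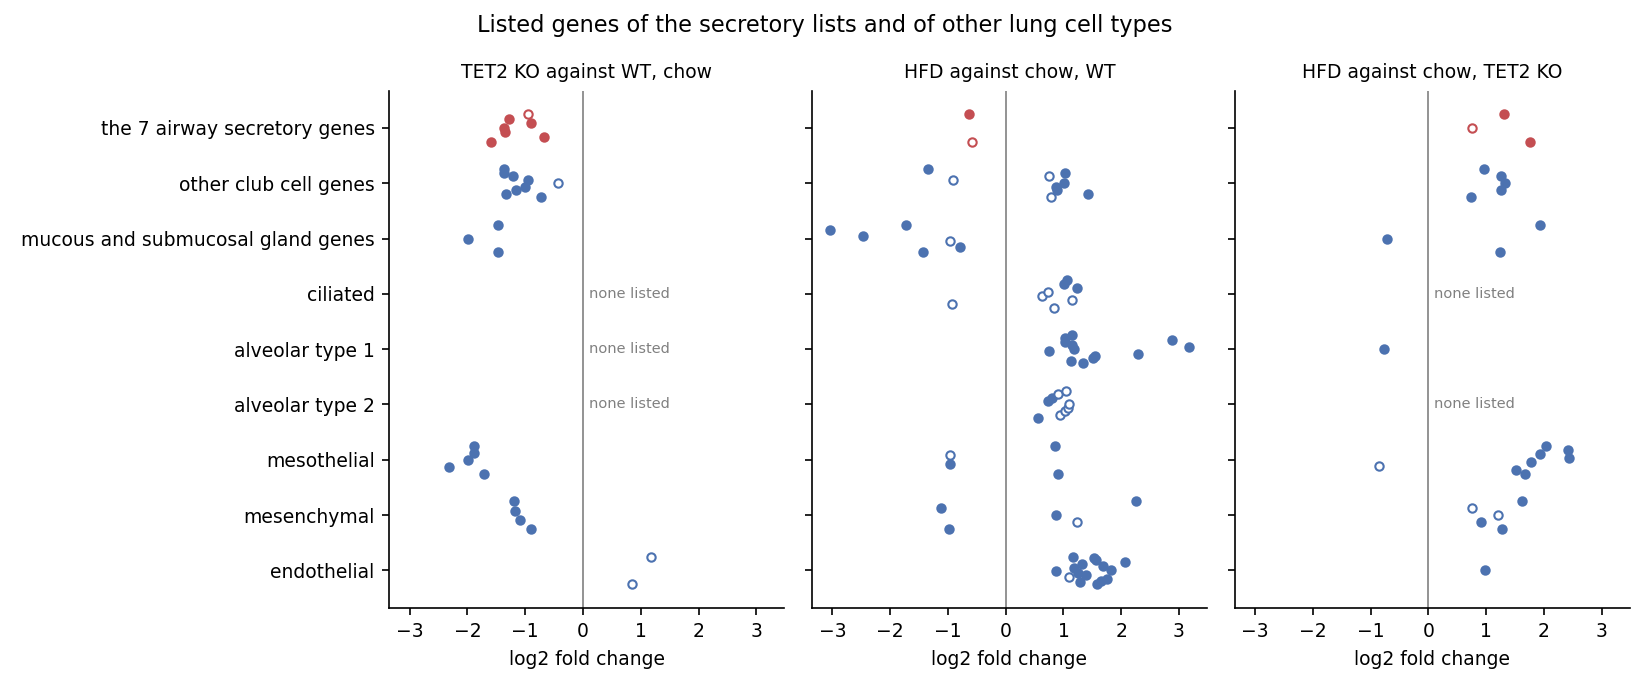
Log2 fold change (horizontal axis) of every listed gene in 9 lists in 3 comparisons; each circle is a gene, filled where called, red for the 7 secretory genes. On chow the secretory, other club, mucous, mesothelial and mesenchymal genes all lie left of 0, and on HFD in TET2 KO mice they lie mostly right of 0. Muc16 is drawn in both the mucous and the mesothelial list.

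No gene of the 7 has values in all 12 libraries, so their 4 groups were not compared in 1 fit. Among the club and mucous lists 3 genes do, Bpifa1, Slc16a11 and Muc16, because they were listed in tables that together cover every group. Bpifa1 encodes a BPI-fold protein of the upper airway surface, a relative of Bpifb1. Its FPKM was 40.4, 20.4 and 76.9 in WT chow, 14.1, 13.0 and 22.3 in TET2 KO chow, 17.5, 8.18 and 25.1 in WT HFD, and 54.3, 13.9 and 48.1 in TET2 KO HFD. Means were 45.9 and 38.7 in WT chow and TET2 KO HFD but 16.5 and 16.9 in the other groups, with overlap between libraries.

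Slc16a11 was 6.18, 7.13 and 8.82 FPKM in WT chow, 2.53, 3.71 and 2.38 in TET2 KO chow, 2.72, 3.03 and 2.98 in WT HFD, and 8.82, 3.79 and 4.17 in TET2 KO HFD. Muc16, which mesothelial cells express as well as airway cells, ranged from 0.0457 to 0.119 FPKM in WT chow, 0.0144 to 0.0311 in TET2 KO chow, 0.0230 to 0.0595 in WT HFD and 0.0407 to 0.116 in TET2 KO HFD. For each gene both the TET2 KO chow and the WT HFD mean lay below the means of the remaining groups.

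The difference between the genotype effects, TET2 KO minus WT on HFD less the same on chow, was 2.67 (SE 0.81) for Bpifa1, 2.30 (SE 0.44) for Slc16a11 and 2.92 (SE 0.72) for Muc16 on the log2 scale, in an edgeR fit to the 12 libraries. All 3 were called, where 56.4% of the 975 genes of this fit were called and 27.8% were called and positive. Since genes reached this fit only by being listed as different, these values are a description.

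**Figure D4:**
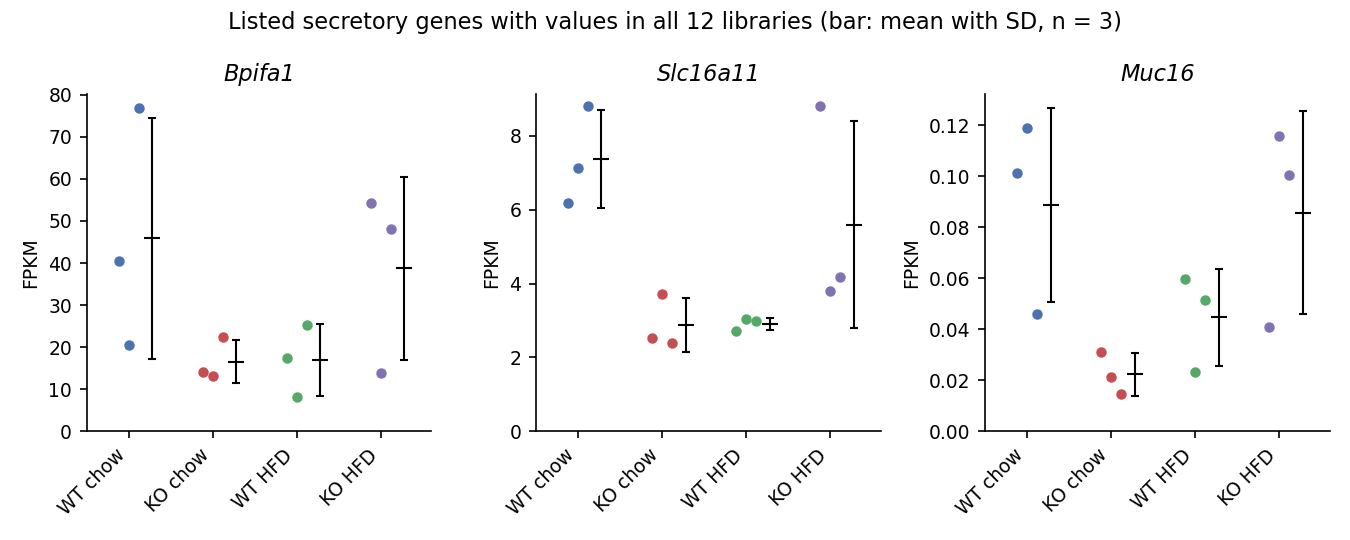
FPKM (linear axes from 0) of the 3 genes of the club and mucous lists that have values in all 12 libraries; points are single mice and bars the mean with SD (n = 3). Muc16 is also on the mesothelial list. Bpifa1 has means of 45.9 in WT chow, 16.5 in TET2 KO chow, 16.9 in WT HFD and 38.7 in TET2 KO HFD.

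In the fourth comparison, TET2 KO against WT on HFD, where 82.3% of listed genes were called, 43.1% as higher and 39.1% as lower, 5 of 30 further club cell genes were listed, 4 lower and 1 higher. Slc16a11 rose by 0.95 on the log2 scale (SE 0.33), Cyp2b10 fell by 1.21 (SE 0.38), and Sec14l3, Fmo2 and Cyp2s1 were not called, from -0.76 to -0.61. Of 23 mucous genes 2 were listed, with Galnt6 higher (0.48, SE 0.13) and Bpifa1 not called at 1.20 (SE 0.56). Of 16 transcription factors 2 were listed, Grhl1 called higher and Foxa2 not called. Of 37 family relatives 8 were listed, 2 called higher and 4 called lower, among them Ly6a and Ly6c1. Of 15 alveolar type 1 genes 13 were listed, all lower and 10 called (69.5 to 112 FPKM in sum in TET2 KO HFD and 160 to 215 in WT HFD), with Sec14l3 on that list as well as the club cell list. Of 18 endothelial genes 14 were listed, all lower and 12 called (552 to 1004 and 1038 to 1879 FPKM). Of 7 basal genes 2 rose, Ngfr and Krt5. Among the other lists 3 ciliated genes were listed with 1 called lower, 2 alveolar type 2 genes with 1 called higher and 1 general epithelial gene called lower, while 1 mesothelial and 1 leukocyte gene were not called. What these shifts contributed to the club and mucous genes was not tested.

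Other listed genes were ordered by how closely their levels followed those of Scgb1a1 over its 9 libraries, from 1098 genes with a mean of at least 0.5 FPKM. Pearson's r of log2 FPKM was 0.97 for Gabrp, 0.93 for Scgb3a2 and 0.79 for Bpifa1, so that 3 genes of secretory cells were among the 10 closest. The others included Gm4876 (0.89), Gm37760 (0.85), Cdc20 (0.83), Ankrd53 (0.78), Antxr2 (0.78) and Gm15726 (0.77), of which Gm4876 and Gm15726 are annotated as antisense. For Bpifb1, over its own 9 libraries and 923 genes, the closest were Gm15911 (0.95, antisense), Scgb3a1 (0.95), Bpifa1 (0.90), Chad (0.87), Pde12 (0.87), Muc5b (0.86) and Reg3g (0.86). Libraries of 3 groups enter each r, so differences between groups are part of it, and genes were listed because they differed.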

How the data were processed

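Poly(A) RNA of CD31+ cells selected from mouse lungs with antibody-coated magnetic beads was sequenced as paired-end reads. The authors aligned reads with HISAT2 (build mm10 per the submitters' processing notes), counted reads per gene with featureCounts and compared groups with DESeq2. Versions, annotation release and strand setting are not given in the sources used here. The authors deposited raw counts, a normalized signal (count divided by the DESeq2 size factor of the library within a table) and FPKM values in 4 tables of listed genes. Deposited fold changes, p-values and adjusted p-values of the authors' own test were not used. Groups came from the sample titles.

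The total of each library was computed from its counts, FPKM and gene lengths. FPKM values were set side by side over all tables, normalized counts only within a table. Means with SD are of FPKM, and log2 fold changes with SE are from edgeR 4.0.16 in R 4.3.3, a quasi-likelihood test (two-sided) on the counts of all listed genes of the 2 groups with the authors' size factors. A call is an unadjusted p under 0.05. SE is the absolute log2 fold change divided by the square root of the F statistic. The spread was estimated from genes already chosen for a difference, so calls cannot be read as those of a fit over all genes. In which direction this moved the calls was not tested. The 12-library fit used library totals and the 975 genes with counts in every group. Likeness used log2(FPKM + 0.01). The fits were tested on simulated data.

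The 7 genes and all lists were chosen with earlier results of these data known. Besides the 7, genes named are those of the lists, up to 6 a list and comparison in order of mean count, and the 10 most like Scgb1a1, except where an item is not reported here. The genes most like Bpifb1, and further list genes named to complete a small count, were added after their values were seen. Mouse replicates were separate animals, and 0 pairs of libraries had identical counts. Gene positions in the tables equal those of GENCODE M21 on GRCm38. Alternatives were library totals, TMM, DESeq2 1.42.0, limma 3.58.1 on log2(normalized count + 1), a mean normalized count of at least 10, the replicate number as a block, adjusted p, pseudocounts of 0.1 and 1 for FPKM, and leaving out each library. Python 3.11.15 with pandas 2.3.3 and matplotlib 3.10.9 made summaries and figures.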

Additional observations from a re-analysis of the deposited data

Results flagged for a closer look

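In an edgeR fit to the 12 libraries, the log2 effect of TET2 KO against WT was higher on HFD than on chow by 2.67 for Bpifa1, 2.3 for Slc16a11 and 2.92 for Muc16, and the interaction term had an unadjusted p under 0.05 for each. Genes entered the fit only if listed as different in tables that together cover all 4 groups, and 56.4% of its 975 genes were called, so the p-values do not account for that selection and the values are a description. With 1 library left out the differences were 2.08 to 3.07 for Bpifa1, 1.81 to 2.53 for Slc16a11 and 2.61 to 3.26 for Muc16. Bpifa1 in TET2 KO HFD replicate 2, at 13.9 FPKM, lay within the TET2 KO chow range of 13.0 to 22.3. Muc16 is also on the mesothelial list and lay at only 0.0144 to 0.119 FPKM over the 12 libraries. Of the 7 secretory genes none could be fitted in this way.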

How the results depend on the processing

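No log2 fold change of the 7 secretory genes changed sign under any alternative run. At an edgeR p adjusted over the listed genes (Benjamini-Hochberg), 0 of the 7 were called in each comparison, where 6, 1 and 2 had an unadjusted p under 0.05. Leaving out 1 library, 0 to 1 secretory genes were called for HFD against chow in WT, beside 4647 to 5633 of all 7330 listed genes. A pseudocount of 1 FPKM changed the median difference in mean log2 level over the genes, since genes of low level are shrunk by it. For TET2 KO against WT on chow the median went from -1.31 to -0.90. For HFD against chow in TET2 KO it went from 1.33 to 0.52. Of 72 single-gene values with 1 library left out, 61 kept their side of the threshold, 8 lost the call and 3 gained it; under other settings 70 of 72 kept it, where Lypd2 for HFD against chow in TET2 KO gained its call under TMM, so that 3 in place of 2 were called. TMM over the listed genes moved the median of all genes by 0.25 (log2) for HFD against chow in TET2 KO, where 64.2% of calls were then higher in place of 38.0%. No listed gene of any list changed sign with it. All 36 values with 1 library left out and all 9 under other settings of the difference between genotype effects (Bpifa1, Slc16a11 and Muc16) kept sign and call. Same-numbered mice did not deviate together over the listed genes with a mean normalized count of at least 10. There r ran from -0.14 to 0.21 over the comparisons and was over 0.1 in at most 1 of 3 pairs. This does not settle pairing for single genes. Replicate 2 was the lowest library of every group with values for Scgb3a2, Bpifb1 and Bpifa1. It was the highest WT chow library for Scgb1a1, Cyp2f2, Lypd2 and Tff2. With the replicate number as a block, 811 of 1298 listed genes were called for TET2 KO against WT on chow in place of 994, Cyp2f2 lost its call at -0.68, and 5, 1 and 2 secretory genes were called. For all listed genes, calls on chow fell to 483 without WT chow replicate 2. That difference of genotype effects was not run for the 7 genes, which lack values in 1 or more groups, and none of them is listed for TET2 KO against WT on HFD, so no alternative was run there. Of the 7 genes Tff2 and Lypd2 have the fewest reads, 32 to 132 a library, and some list genes rest on fewer still, such as Foxa3 on 0 to 8.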
